A study of Mus musculus with 11 samples.

Results

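The mitotic spindle, kinetochore and cytokinesis genes are 46 genes chosen by name for their part in cell division. They were matched by Ensembl identifier among the 48709 genes of the count tables, and all 46 were among the 17365 genes abundant enough to be tested. RNA had been sequenced from primary hippocampal neurons, which were cultured from pooled hippocampi of CD1 mouse embryos at embryonic day 17; the study describes such hippocampal cultures, in another of its experiments, as a mix of neurons and glia. At day 10 in vitro, 5 samples labelled mimic had received lipid nanoparticles with a synthetic copy of the microRNA miR-181a-5p, and 6 labelled control had received nanoparticles with a negative control oligonucleotide. ApoE4 was added with the nanoparticles in both groups, and RNA was taken after 48 hours, on day 12 in vitro. The sources do not say whether the samples of a group came from separate preparations, so that the p-values measure the spread between these samples, which may be partly technical.

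A cell that divides copies its DNA in S phase and then builds the spindle, a bipolar array of microtubules that holds each chromosome at its kinetochore and pulls the copies apart. Cyclin-dependent kinase 1 with its cyclins starts this process, Aurora and Polo-like kinases assemble the spindle, the spindle checkpoint holds the cell until every kinetochore is attached, and the anaphase-promoting complex then destroys securin and cyclin B so that the chromosomes separate and the cell is cleaved. Mature neurons have left the cell cycle, whereas astrocytes, progenitors, fibroblasts and other non-neuronal cells of a culture can divide. A microRNA lowers messenger RNAs that pair with its seed, nucleotides 2 to 8 from the 5′ end. The oligonucleotides given to the cells are shown here with these nucleotides in capitals, and that of the mimic is identical to the mature mouse miR-181a-5p in RefSeq.
mimic miR-181a-5p: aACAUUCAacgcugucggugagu
negative control for mimic: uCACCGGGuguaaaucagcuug

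The mitotic genes were scarce in these cultures and most were slightly higher after the mimic. Of the 46 genes, 44 (95.7%) had a log2 fold change above 0, against 49.9% of all genes tested. The median log2 fold change was 0.289 for the 46 genes and -0.0001 for all genes tested. Summed over the 46 genes, the level was 294 ± 7.53 in the controls (SD, n = 6) and 340 ± 18.6 after the mimic (SD, n = 5), in CPM, that is counts brought to 1 library size with TMM factors. In the controls the sum lay between 285 and 305 CPM, with a median of 293. The mimic sums were 316, 350, 329, 340 and 365 CPM in replicates 1 to 5, all above the highest control.

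The genes that passed the test were Cdk1, Ccna2, Tpx2, Bub1, Bub1b, Cdc20, Cenpa, Top2a, Kif4, Prc1, Kif20a and Anln (12 of 46), each higher in the mimic samples (edgeR quasi-likelihood test, Benjamini-Hochberg adjusted p under 0.05). These are 26.1% of the 46 genes, where 1.08% of all genes tested were called higher. No gene of the group was called lower, that is 0 of 46 (by DESeq2 also 0, and 0 at an unadjusted p under 0.05), where 1.77% of all genes tested were. The fold changes of the called genes were small, from 1.18 to 1.49. At an unadjusted p under 0.05, 34 of the 46 genes (73.9%) were higher in mimic samples, against 7.30% of all genes tested. Every mimic sample lay above every control sample for 12 of the 46 genes (26.1%), against 1.16% of all genes tested. Of these 12 genes 8 were called, and 4 (Aurka, Kif15, Ncapg and Smc2) were not.
The higher values were spread over the mimic samples, but not evenly. Mimic replicate 5 held the highest value of 21 genes and mimic replicate 2 that of 11, while 3 of the 46 genes were highest in a control sample. Without mimic replicate 2 the count of called genes was 7, and without control replicate 1, the deepest library, it was 8. Among all genes tested, those called higher numbered 96 and 68 in these fits, against 188 with all samples.

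**Figure D1:**
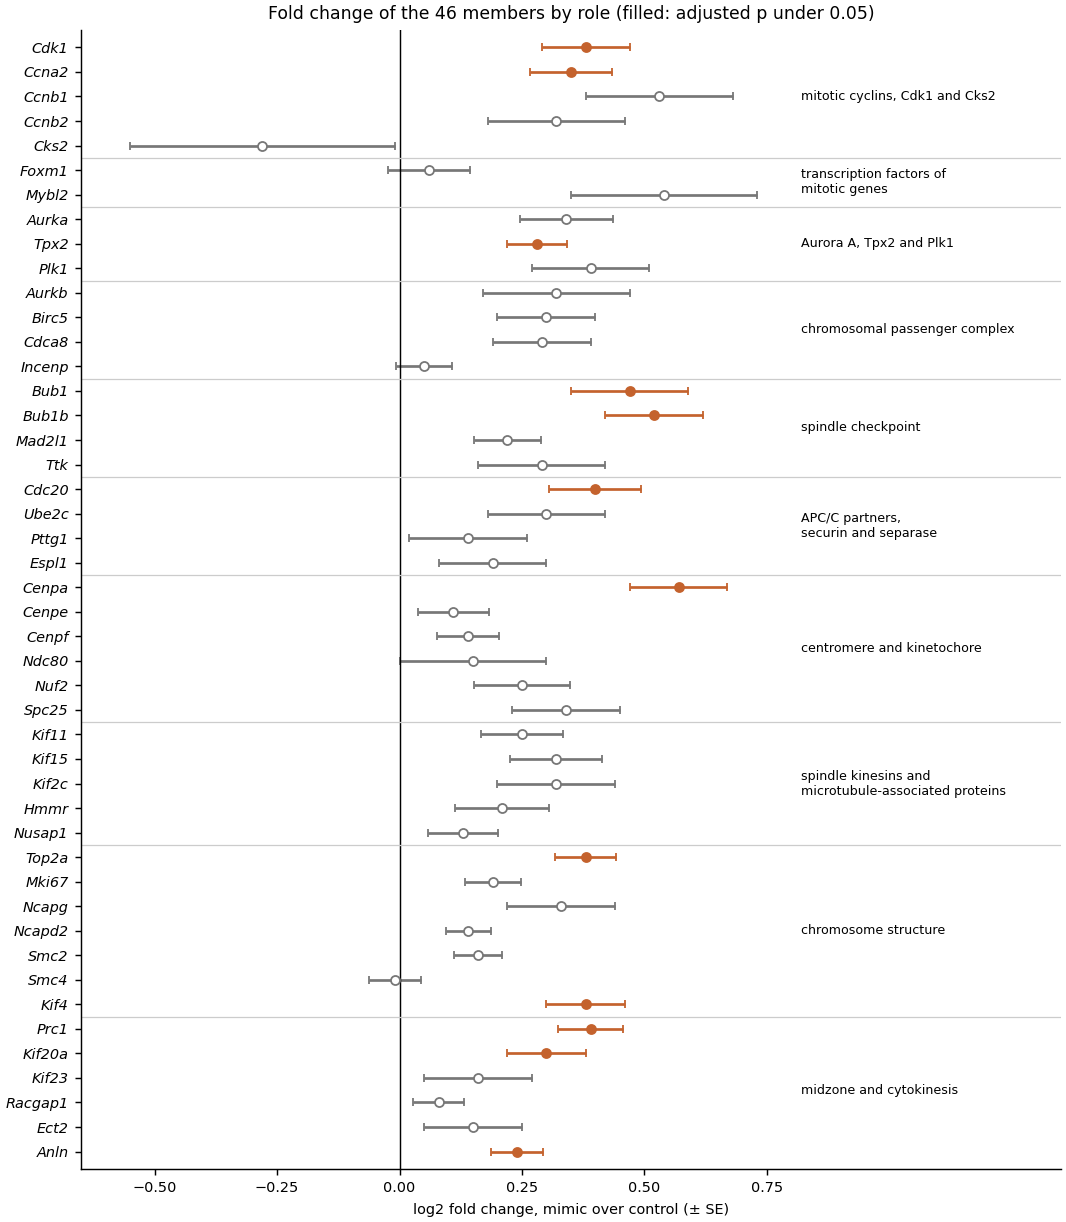
Log2 fold change of each of the 46 mitotic genes, mimic over control, with its standard error, grouped by role; filled points passed the test (edgeR adjusted p under 0.05). Cenpa at 0.57 is highest, and Cks2 at -0.28 and Smc4 at -0.01 are the 2 genes below 0.

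**Figure D2:**
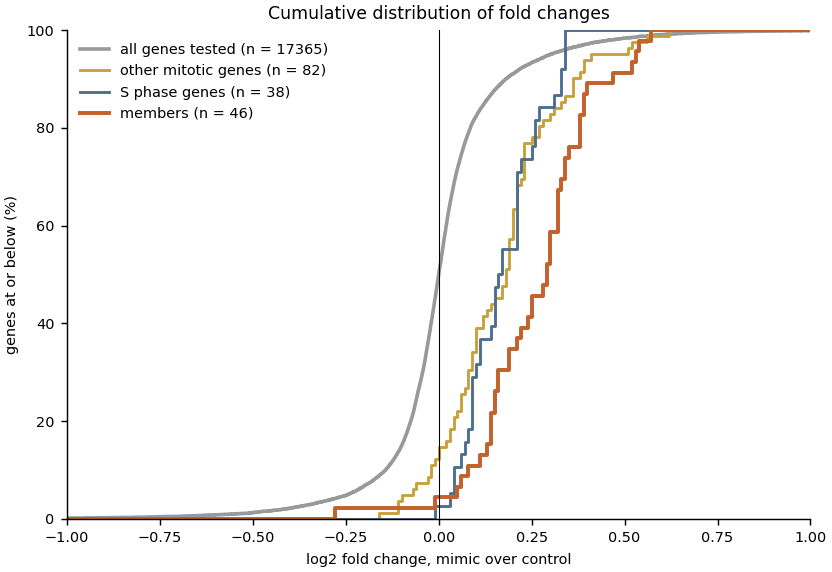
Share of genes at or below each log2 fold change (x axis, mimic over control) for the 46 mitotic genes, 82 other mitotic genes, 38 S phase genes and all 17365 genes tested. The curve of the 46 genes lies to the right, with a median of 0.289 beside 0.184, 0.164 and -0.0001.

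These genes have promoters of a known kind. The CHR (cell cycle genes homology region) is a short element close to the start site that recruits the DREAM complex, which keeps mitotic genes silent in resting cells, and B-Myb with FoxM1, which activate them before division. CCAAT boxes, bound by NF-Y, often lie just upstream of it. Promoters of RefSeq on GRCm38.p6, from 250 bases before to 50 after the start site, were given for 39 of the 46 genes and searched on both strands for CHR (TTTGAA or TTCGAA) and CCAAT; both kinds of match can share a base, as in the promoter of Cdca8. The promoters of 5 called genes and of Cks2, which had the lowest fold change, are printed from 160 bases before to 50 after the start site, with CHR and CCAAT matches of either strand in capitals; for Prc1 the first of 2 entries is shown.
Cdk1, chr10:69352863-69353072 (minus strand): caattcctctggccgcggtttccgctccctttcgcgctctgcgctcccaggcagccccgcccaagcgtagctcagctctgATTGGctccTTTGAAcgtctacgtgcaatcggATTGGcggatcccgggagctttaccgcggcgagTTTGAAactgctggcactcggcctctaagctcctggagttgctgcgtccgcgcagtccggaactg
Cdc20, chr4:118437294-118437503 (minus strand): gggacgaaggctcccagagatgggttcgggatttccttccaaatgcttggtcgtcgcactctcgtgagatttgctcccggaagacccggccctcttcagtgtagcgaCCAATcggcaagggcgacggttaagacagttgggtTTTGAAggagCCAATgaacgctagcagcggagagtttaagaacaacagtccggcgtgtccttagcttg
Cenpa, chr5:30666726-30666935 (plus strand): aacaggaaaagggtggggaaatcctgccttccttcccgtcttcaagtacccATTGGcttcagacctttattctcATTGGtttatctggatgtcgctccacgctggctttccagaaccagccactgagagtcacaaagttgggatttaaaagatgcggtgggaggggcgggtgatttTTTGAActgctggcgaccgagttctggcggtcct
Top2a, chr11:99024140-99024349 (minus strand): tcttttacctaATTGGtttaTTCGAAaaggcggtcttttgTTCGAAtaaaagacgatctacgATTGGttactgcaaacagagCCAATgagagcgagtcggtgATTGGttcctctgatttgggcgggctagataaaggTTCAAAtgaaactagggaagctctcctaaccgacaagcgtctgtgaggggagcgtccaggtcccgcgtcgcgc
Prc1, chr7:80294291-80294500 (plus strand): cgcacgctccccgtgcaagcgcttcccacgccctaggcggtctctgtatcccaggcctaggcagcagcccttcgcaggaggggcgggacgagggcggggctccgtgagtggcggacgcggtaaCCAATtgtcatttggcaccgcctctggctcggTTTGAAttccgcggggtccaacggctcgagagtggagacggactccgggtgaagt
Cks2, chr13:51645072-51645281 (plus strand): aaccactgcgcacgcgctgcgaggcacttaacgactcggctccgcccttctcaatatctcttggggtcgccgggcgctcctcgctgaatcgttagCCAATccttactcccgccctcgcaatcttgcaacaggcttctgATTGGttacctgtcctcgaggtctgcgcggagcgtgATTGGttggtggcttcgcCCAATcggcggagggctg

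Counted with the start site as base 1 and no base 0, the CHR match nearest to it begins at -15 in Cdk1, -18 in Cdc20, 17 in Cenpa, -23 in Top2a and -5 in Prc1. Cks2 has CCAAT matches and no CHR match in its window. A CHR match was found in 30 of the 39 promoters (76.9%), against 16.3% of the promoters of all genes tested. It lay within 50 bases of the start site in 27 of them (69.2%), against 4.34%. CCAAT was found in 29 of the 39 (74.4%, against 42.5%), and both were found in 26 (66.7%, against 6.77%). All 9 called genes with a promoter entry held a CHR match, as did 21 of the 30 genes that were not called and had an entry. The 30 genes with a CHR match had a median log2 fold change of 0.31, the 9 without it 0.22 and the 7 with no promoter entry 0.28. Outside the mitotic and S phase lists, genes with a CHR match were called higher in 0.995% of 1910 cases and those without it in 1% of 10177.

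**Figure D3:**
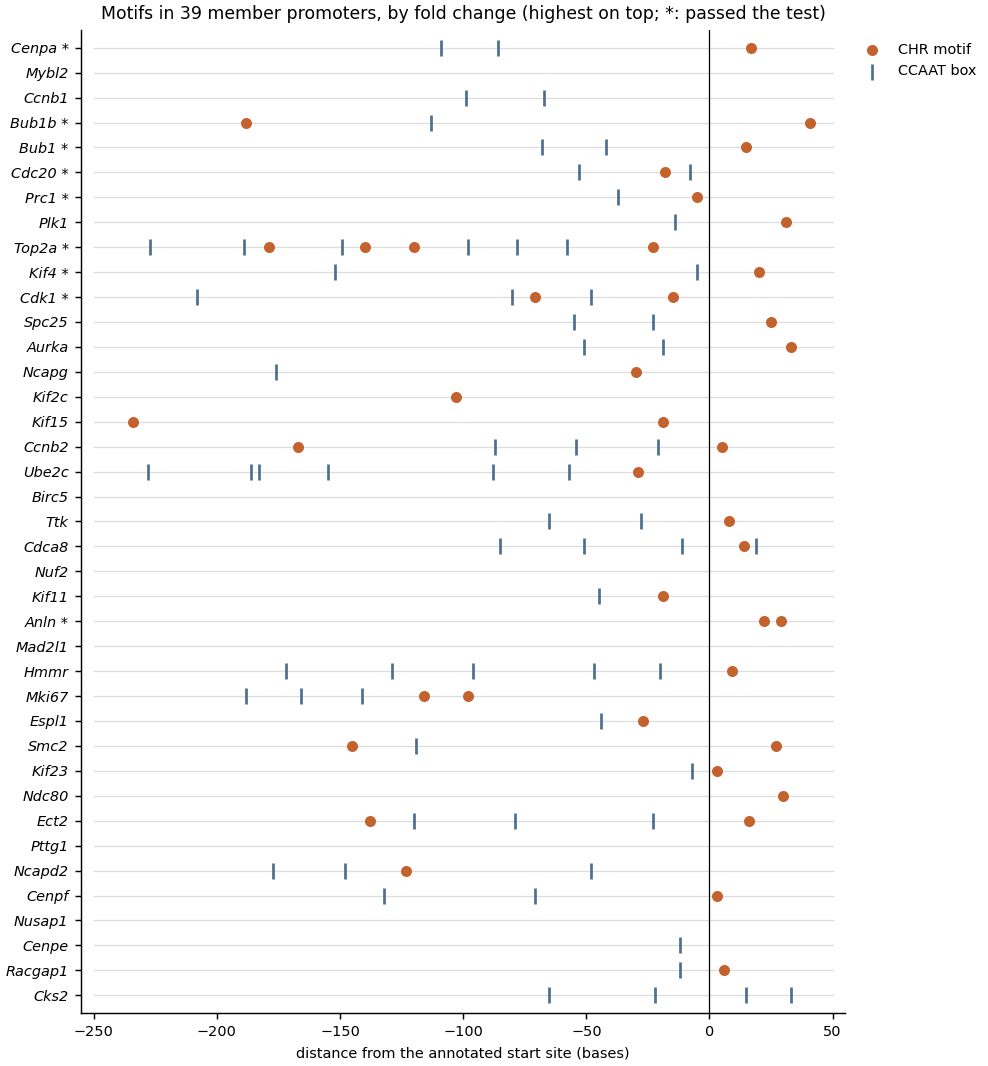
Position of CHR matches (circles) and CCAAT matches (bars) in the promoters of the 39 mitotic genes with an entry, in bases from the annotated start site, with genes ordered by fold change; asterisks mark called genes. In 27 of the 39 a CHR match lies within 50 bases of the start site.

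Among the genes of the Cdk1 kinase, Cdk1 and cyclin A were higher. Cdk1 (ENSMUSG00000019942, chromosome 10, 69335146 to 69352938) encodes the kinase that drives entry into mitosis. Its level was 3.81 to 5.29 CPM in control samples, with a median of 4.67, and 5.22, 6.11, 5.84, 5.62 and 6.59 CPM in mimic replicates 1 to 5. In all, 4 of 5 mimic samples lay above every control, and mimic replicate 1 fell just under the highest one. The log2 fold change was 0.38 (SE 0.09, edgeR adjusted p 0.0203), and the call was lost without control replicate 1 (edgeR adjusted p 0.089), mimic replicate 2 (0.0742) or mimic replicate 5 (0.054). Ccna2 (ENSMUSG00000027715, chromosome 3, 36564865 to 36572150) encodes cyclin A2, which acts in S phase and at entry into mitosis. Control samples had 4.92 to 7.22 CPM (median 5.61) and mimic samples 6.89, 7.9, 6.6, 7.33 and 8.15 CPM. The groups overlapped through 1 control, replicate 6 at 7.22 CPM. The log2 fold change was 0.35 (SE 0.084, edgeR adjusted p 0.0203), and the call was lost without control replicate 1 (edgeR adjusted p 0.0683) or mimic replicate 2 (0.086).
Ccnb1, cyclin B1, the cyclin whose destruction ends mitosis, had 1.18 to 1.75 CPM in control samples (median 1.25) and 1.52, 1.71, 1.89, 1.79 and 2.56 CPM in mimic samples. Its log2 fold change of 0.53 (SE 0.15) did not pass the test (edgeR adjusted p 0.0545). That adjusted p was below 0.05 without control replicate 3, whose 1.75 CPM stood above the other controls, and without mimic replicate 1. Ccnb2, cyclin B2, had a log2 fold change of 0.32 (edgeR adjusted p 0.234). A pseudogene named Ccnb2-ps had a median count of 60 beside 62 for Ccnb2, so reads could be split between them. Cks2, a small protein that binds Cdk1, had the lowest value of the 46 genes at -0.28 (SE 0.27), from 5 to 36 reads per sample.

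Both transcription factors of the mitotic programme missed the threshold. Foxm1, which activates CHR genes late in the cycle, had 4.61 to 6.17 CPM in control samples (median 5.48) and 5.22, 5.54, 6.27, 5.66 and 5.59 CPM in mimic samples. These ranges overlapped over most of their length, and the log2 fold change was 0.06 (SE 0.084, edgeR adjusted p 0.835). Mybl2, which encodes B-Myb, was the scarcest gene per length at 0.218 RPKM in control samples and its log2 fold change was 0.54 (SE 0.19, edgeR adjusted p 0.145).

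Of the spindle pole genes Aurka, Tpx2 and Plk1, Tpx2 was called and the kinases were not. Tpx2 (ENSMUSG00000027469, chromosome 2, 152847964 to 152895321) encodes the microtubule protein that binds and activates Aurora A. Its level was 8.41 to 9.85 CPM in control samples (median 9.6) and 10.6, 11.9, 12.2, 10.6 and 12.2 CPM in mimic samples. No control reached the mimic samples, and the log2 fold change was 0.28 (SE 0.061, edgeR adjusted p 0.0108). Aurka, Aurora A itself, also had no overlap, with 3.3 to 3.99 CPM in control and 4.11 to 5.69 CPM in mimic samples, but its edgeR adjusted p was 0.0501 (log2 fold change 0.34, SE 0.095). Plk1, Polo-like kinase 1, was at 0.39 on the log2 scale (SE 0.12) and was not called (edgeR adjusted p 0.0757).

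The chromosomal passenger complex corrects faulty attachments at the centromere and later guides cleavage. None of its 4 genes was called (0 of 4 also by DESeq2), although 3 of 4 had an unadjusted p under 0.05. Their log2 fold changes ran from 0.05 for the scaffold Incenp (SE 0.058) to 0.32 for the kinase Aurkb (SE 0.15), with survivin (Birc5) at 0.30 and borealin (Cdca8) at 0.29 between them.

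The spindle checkpoint genes had the highest median of the 10 role groups, at 0.379, and 2 of 4 were called. Bub1b (ENSMUSG00000040084, chromosome 2, 118598211 to 118641591) encodes BubR1, a part of the complex that inhibits the anaphase-promoting complex. Its level was 2.22 to 3.18 CPM in control samples (median 2.89) and 3.5, 4.06, 3.68, 4.66 and 4.31 CPM in mimic samples. All mimic samples exceeded all controls, and the log2 fold change was 0.52 (SE 0.10, edgeR adjusted p 0.00628). Bub1 (ENSMUSG00000027379, chromosome 2, 127801122 to 127831865) encodes the kinase that recruits checkpoint proteins to kinetochores. It had 1.91 to 2.64 CPM in control samples (median 2.5) and 2.43, 3.11, 3.25, 3.35 and 3.89 CPM in mimic samples. Mimic replicate 1 lay within the control range and the other 4 lay above it. The log2 fold change was 0.47 (SE 0.12, edgeR adjusted p 0.0306). This call was lost without control replicate 1 (edgeR adjusted p 0.122), control replicate 2 (0.0615), mimic replicate 2 (0.0707), mimic replicate 4 (0.0842) or mimic replicate 5 (0.0879). It was also lost in the authors' normalized table with a pseudocount of 1 (limma adjusted p 0.0598) or 5 (0.0561) and with control replicate 1 thinned (edgeR adjusted p 0.0675). Mad2l1 and Ttk, which encode Mad2 and the kinase Mps1, had log2 fold changes of 0.22 and 0.29 and were not called.

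In the step that the checkpoint holds back, the activator of the anaphase-promoting complex was higher. Cdc20 (ENSMUSG00000006398, chromosome 4, 118432901 to 118437352) had 3.19 to 3.87 CPM in control samples (median 3.5) and 3.85, 5.13, 4.06, 5.14 and 4.64 CPM in mimic samples. Mimic replicate 1 fell just under the highest control, and the other 4 were above it. The log2 fold change was 0.40 (SE 0.094, edgeR adjusted p 0.0171), and the call was lost without mimic replicate 2 (edgeR adjusted p 0.083) or mimic replicate 4 (0.0708). Ube2c, the ubiquitin-conjugating enzyme of that complex, securin (Pttg1) and separase (Espl1), the protease that cuts cohesin, were not called, with log2 fold changes of 0.30, 0.14 and 0.19.

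**Figure D4:**
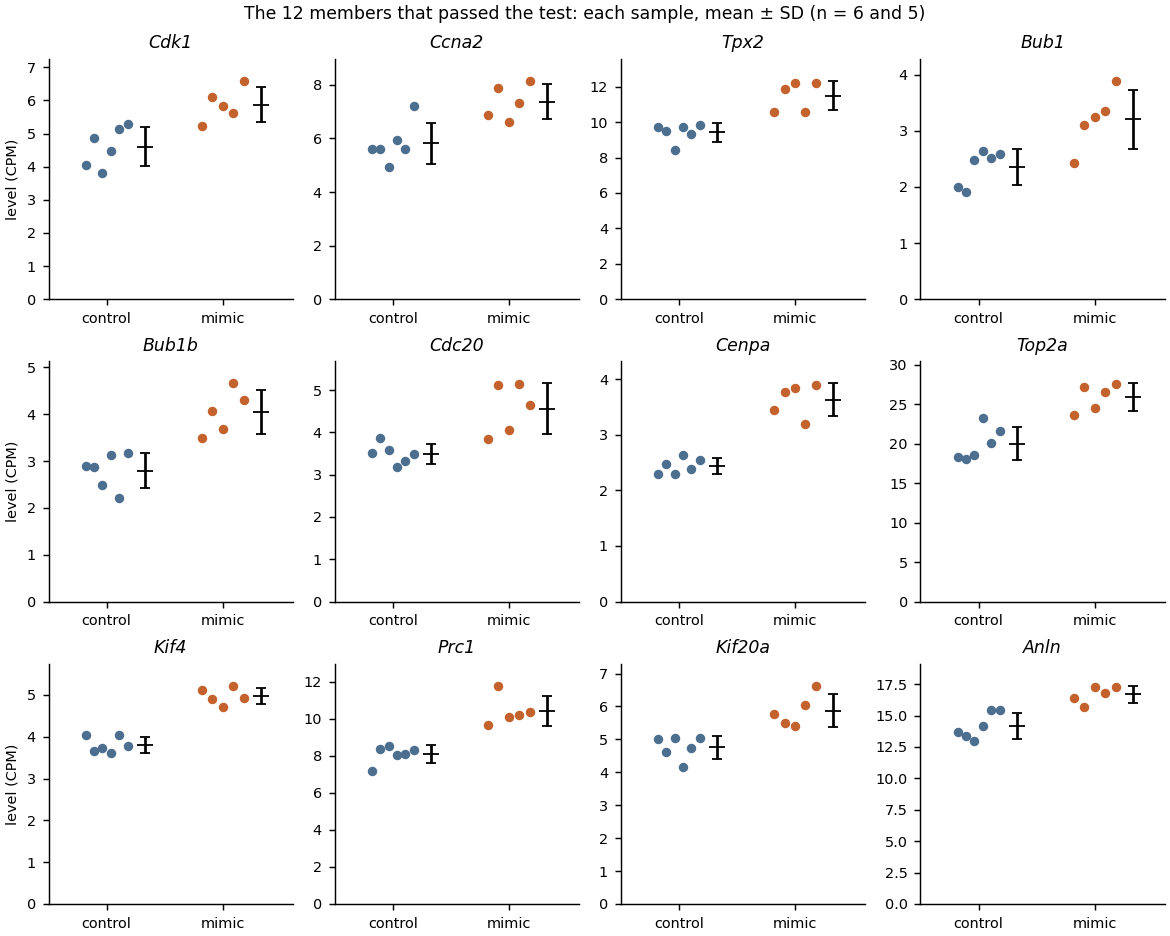
Level in CPM (y axis, from 0) of the 12 called mitotic genes in each control (n = 6) and mimic (n = 5) sample, with the mean and SD of each group at its right. In 8 of the 12 panels every mimic sample is above every control sample; Cdk1, Ccna2, Bub1 and Cdc20 overlap.

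At the centromere, Cenpa showed the largest fold change of all 46 genes. Cenpa (ENSMUSG00000029177, chromosome 5, 30666777 to 30674830) encodes the histone H3 variant that marks centromeres. Its level was 2.29 to 2.64 CPM in control samples (median 2.44) and 3.45, 3.76, 3.84, 3.19 and 3.89 CPM in mimic samples. The lowest mimic sample stood clear of the highest control, and the log2 fold change was 0.57 (SE 0.099, fold 1.49, edgeR adjusted p 0.00178). The other 5 kinetochore genes were not called. They ran from 0.11 for Cenpe, a kinetochore kinesin, over Cenpf (0.14) and the Ndc80 complex genes Ndc80 (0.15) and Nuf2 (0.25) to 0.34 for Spc25 of the same complex (SE 0.11, edgeR adjusted p 0.109).

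None of the 5 spindle motors and microtubule-binding genes was called (0 also by DESeq2), while 4 of 5 had an unadjusted p under 0.05. The log2 fold changes ran from 0.13 for Nusap1 to 0.32 for Kif15 and Kif2c, with Kif11, the motor that separates the poles, at 0.25 and Hmmr at 0.21. Kif15, a motor that helps to keep the spindle bipolar, had 2.85 to 4.02 CPM in control and 4.1 to 4.65 CPM in mimic samples, with no overlap (edgeR adjusted p 0.0612).

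Of 7 genes of chromosome structure, Top2a and Kif4 were called. Top2a (ENSMUSG00000020914, chromosome 11, 98992943 to 99024189) encodes topoisomerase II alpha, which untangles the DNA copies. Its level was 18.1 to 23.3 CPM in control samples (median 19.3) and 23.6, 27.2, 24.5, 26.6 and 27.6 CPM in mimic samples. The gap between the groups was narrow but free of overlap, and the log2 fold change was 0.38 (SE 0.062, edgeR adjusted p 0.00188). Kif4 (ENSMUSG00000034311, chromosome X, 100625737 to 100727214) encodes a kinesin of chromosome arms and of the spindle midzone. It had 3.61 to 4.04 CPM in control samples (median 3.75) and 5.12, 4.9, 4.71, 5.22 and 4.93 CPM in mimic samples. Again all mimic samples exceeded all controls, and the log2 fold change was 0.38 (SE 0.08, edgeR adjusted p 0.0082).
Mki67, which encodes the proliferation marker Ki-67 that coats mitotic chromosomes, had 16.1 to 19.4 CPM in control samples (median 18.3) and 18.5, 20.9, 19.1, 22.7 and 22.1 CPM in mimic samples. In all, 3 of 6 controls reached the lowest mimic sample, and the log2 fold change of 0.19 (SE 0.057) did not pass the test (edgeR adjusted p 0.0715). The 4 condensin genes of this list, whose products compact chromosomes, were not called either. Ncapg had 0.33 (SE 0.11) and Smc2 0.16 (SE 0.049), both with no overlap between groups, Ncapd2 had 0.14 (SE 0.046) and Smc4 had -0.01 (SE 0.053). Smc4 was the most abundant of the 46 genes per length.

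Of 6 midzone and cytokinesis genes, Prc1, Kif20a and Anln were called, all 3 with no overlap between groups. Prc1 (ENSMUSG00000038943, chromosome 7, 80294450 to 80316259) encodes the protein that bundles midzone microtubules. Its level was 7.19 to 8.54 CPM in control samples (median 8.21) and 9.68, 11.8, 10.1, 10.2 and 10.4 CPM in mimic samples. The mimic samples lay close together apart from replicate 2, and the log2 fold change was 0.39 (SE 0.066, edgeR adjusted p 0.0016), the smallest adjusted p of the 46 genes. Kif20a (ENSMUSG00000003779, chromosome 18, 34624613 to 34633277), a midzone kinesin, had 4.16 to 5.05 CPM in control samples (median 4.88) and 5.78, 5.51, 5.41, 6.05 and 6.63 CPM in mimic samples. Its log2 fold change was 0.30 (SE 0.081, edgeR adjusted p 0.0399). This was the weakest of the 12 calls. Leaving out any of control replicates 1, 2, 4 and 5 or mimic replicates 1, 2, 4 and 5 lost it (highest edgeR adjusted p 0.107). The call was also lost in DESeq2 (adjusted p 0.0536), with a replicate block (edgeR adjusted p 0.0658) and with control replicate 1 thinned (0.0645).
Anln (ENSMUSG00000036777, chromosome 9, 22332012 to 22389188) encodes anillin, which links actin and septins in the cleavage furrow. It had 13 to 15.4 CPM in control samples (median 14) and 16.4, 15.7, 17.3, 16.8 and 17.3 CPM in mimic samples. The log2 fold change was 0.24 (SE 0.053, edgeR adjusted p 0.0127). The centralspindlin genes Kif23 and Racgap1 and the exchange factor Ect2, which together place the furrow, had log2 fold changes of 0.16, 0.08 and 0.15 and were not called.

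The levels were low throughout. Per kilobase of exon, the 46 genes ran from 0.218 RPKM (Mybl2) to 4.58 RPKM (Smc4) in control samples, with a median of 0.889 RPKM beside 3.46 RPKM for all genes tested. Their median percentile among tested genes was 29. A member had between 5 and 1104 reads in a sample, so that counting error weighs most on the scarcest genes. Ccna2, Cdc20, Kif4, Prc1 and Kif20a overlap genes on the other strand (Exosc9, Elovl1, Pdzd11, Rccd1 and Cdc23), and reads of the shared stretches cannot be told apart if counting ignored strand. These neighbours had log2 fold changes of 0.03, 0.09, 0.11, 0.06 and 0.07, none of them called.

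Matches to the mimic's seed were about as common in the mitotic genes as elsewhere. The 7-nucleotide match TGAATGT occurred in the longest annotated 3′ UTR of 10 of the 46 genes (21.7%), against 19.2% of 14512 tested genes with a 3′ UTR. The median 3′ UTR length was 836 bases for the 46 genes and 1374 for the tested genes. Ccna2 and Kif4 were the 2 of 12 called genes with a match, and Ccnb1 was the gene with a match and the highest fold change. These sites are shown with 11 bases on either side and the match in capitals, on GRCm38, with the coordinates of the match itself.
Ccna2, chr3:36566136-36566142 (minus strand): acaatcacttcTGAATGTagatggtatag
Kif4, chrX:100727159-100727165 (plus strand): tgttactgaagTGAATGTcacattttaaa
Ccnb1, chr13:100779544-100779550 (minus strand): cttaactcattTGAATGTtgttgcttctg

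All 3 genes had positive log2 fold changes (0.35, 0.38 and 0.53), and among the 10 genes with a match only Smc4, at -0.01, was below 0.

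Fewer of the other mitotic genes were called. Of 82 other mitotic genes, 71 had a log2 fold change above 0 and 3 were called higher (3.66%, against 1.08% of all genes tested), with a median of 0.184. These were Cdca3, a trigger of mitotic entry (from 3.56 ± 0.314 CPM in the controls to 4.62 ± 0.37 CPM, SD, n = 6 and 5, edgeR adjusted p 0.0121), the kinase Melk (log2 fold change 0.56, edgeR adjusted p 0.036) and the condensin subunit Ncaph (0.36, edgeR adjusted p 0.0366). Over 20 alternatives the call was kept in 19 for Cdca3, 10 for Melk and 8 for Ncaph. None of the 82 was called lower (also 0 at an unadjusted p under 0.05).
Of 38 S phase genes, 37 had a log2 fold change above 0 and 8 were called higher (21.1%), with a median of 0.164. They include the replicative helicase genes Mcm3 (0.26), Mcm6 (0.21) and Mcm7 (0.21), the polymerase gene Pole (0.33), Rrm2 (0.33), which serves nucleotide synthesis, Uhrf1 (0.34), which maintains DNA methylation, and the ligase gene Lig1 (0.25). Their edgeR adjusted p ran from 0.00661 for Pole to 0.047 for Mcm7. The summed level of the S phase genes was 309 to 321 CPM in control and 344 to 355 CPM in mimic samples, with no overlap.
The count for the S phase genes was 2 without control replicate 1, 3 without mimic replicate 2 and 3 without mimic replicate 4. For the other mitotic genes it was 0 without control replicate 1, 1 without control replicate 4 and 1 without mimic replicate 2. Calls also fell among all genes tested. Those called higher numbered 188 with all samples, 68 without control replicate 1, 96 without mimic replicate 2 and 103 without mimic replicate 4. Without control replicate 4 they numbered 201. CHR matches were found in 19.4% of the S phase promoters, beside 76.9% for the 46 mitotic genes. Of 24 cell cycle inhibitors and DREAM complex genes, the repressor E2f8 was called (log2 fold change 0.68, SE 0.18, edgeR adjusted p 0.0352), 15 of the 24 were above 0 and the median was 0.020. The E2f8 call was kept in 7 of 19 alternatives and in 3 of the 11 fits that leave out 1 sample (without control replicate 3 or 4 or mimic replicate 1), with edgeR adjusted p up to 0.114.

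Markers of 8 cell types were summed, 10 genes for each, with Pdgfra in both the fibroblast and the oligodendrocyte lineage list. In bulk samples fewer cells of a type cannot be told apart from less RNA per cell. The sums of neuronal, astrocyte and fibroblast markers did not overlap between groups, and those of the other 5 types did. Neuronal markers were abundant, at 8995 to 9224 CPM in control and 8560 to 8837 CPM in mimic samples. Their groups did not overlap, and Camk2a and Slc17a7 were called lower. Astrocyte markers summed to 4950 to 5390 CPM in control and 4543 to 4860 CPM in mimic samples, again apart, with 1 of 10 called lower (Slc1a2). Fibroblast markers went the other way: 9 of 10 were higher at an unadjusted p under 0.05, against 7.30% of all genes tested. All 10 had a log2 fold change above 0, with a median of 0.381, and 1 (Foxc1) was called. Their sum was 317, 395, 435, 479, 430 and 439 CPM in control replicates 1 to 6 and 518, 532, 490, 596 and 647 CPM in mimic replicates 1 to 5. The highest fibroblast sum was thus in mimic replicate 5, which also held the highest sum of the 46 mitotic genes. The lowest was in control replicate 1, which also held the lowest mitotic sum. The orders differed among controls, where the fibroblast sum was highest in replicate 4 (479 CPM) and the mitotic sum in replicate 6 (305 CPM). The progenitor sum was also highest in mimic replicate 5 (891 CPM) but lowest in mimic replicate 3 (804 CPM). The endothelial sum was also lowest in control replicate 1 (44.8 CPM) but highest in mimic replicate 2 (54.5 CPM).
Progenitor markers (827 to 861 and 804 to 891 CPM) overlapped between groups, and 1 marker, Eomes, was at 0 in some samples. Oligodendrocyte lineage markers (336 to 405 and 307 to 355 CPM) and microglial markers (25.5 to 28.5 and 24.4 to 26.3 CPM) also overlapped. In these lists 0 markers were called by edgeR. At an unadjusted p under 0.05, 1 of 9 tested progenitor and 3 of 10 oligodendrocyte lineage markers were lower. Of 9 tested microglial markers, 1 was higher and 2 were lower. Endothelial markers (44.8 to 52.6 and 45.3 to 54.5 CPM) and pericyte or smooth muscle markers (56.4 to 63.7 and 52.3 to 58.5 CPM) also overlapped, with Cdh5 called higher and Rgs5 lower. In these last lists 3 and 4 markers were at 0 in some samples. The part of these cell types in the higher mitotic gene levels was not tested.

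**Figure D5:**
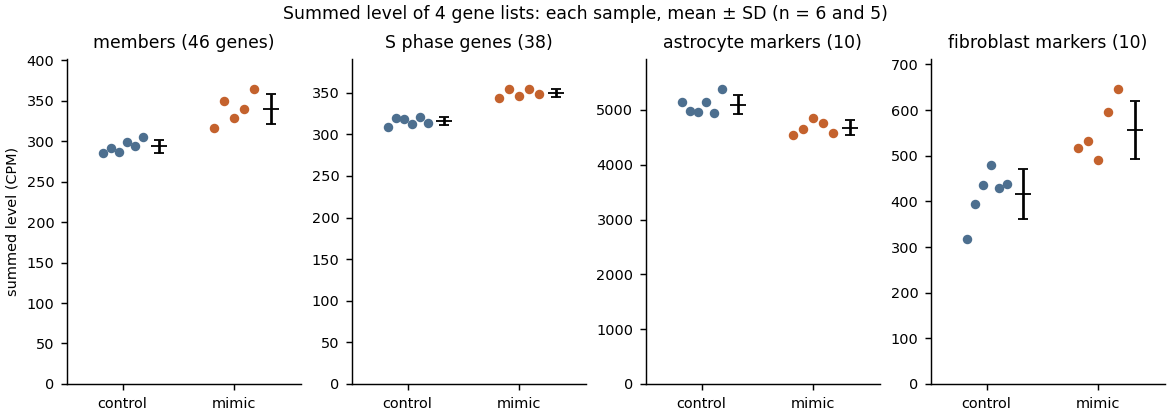
Summed level in CPM (y axis, from 0) of the 46 mitotic genes, 38 S phase genes, 10 astrocyte markers and 10 fibroblast markers in each sample, with the mean and SD of each group. Mitotic, S phase and fibroblast sums are higher in every mimic than in every control sample, and astrocyte sums are lower.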

How the data were processed

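RNA-seq libraries of 6 control and 5 mimic samples were poly(A)-selected (TruSeq v2) and read as 50-base single ends. Per the labels and the study's methods, the authors mapped reads to mm10 (GRCm38) with STAR 2.5.2b, counted them per Ensembl gene with featureCounts of Subread 1.5.1 and deposited raw counts per sample; annotation release, strand and multi-mapping options are not given in the sources used here. A second deposited table holds normalized signal, each column being the raw counts over 1 factor; it served only as an alternative. Total counts were 17287168 to 48091231, and a listed 0 leaves room for 3 counts (0.0624 to 0.174 CPM), for counting error alone. 0 rows named no gene.

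Genes that reached 5 counts in 50% or more of the samples were tested with edgeR 4.0.16 (R 4.3.3): TMM scaling, robust quasi-likelihood test, two-sided, group as the sole term, Benjamini-Hochberg adjustment over 17365 genes, called at an adjusted p under 0.05. The study's own test was DESeq2, used here as an alternative (1.42.0). Standard errors come from the fold change and F. RPKM divides CPM by the union of GENCODE M21 exons. Promoters and miRNAs are from RefSeq (GRCm38.p6) and the oligonucleotides from the study's supplement.

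The mitotic genes and all lists were chosen with earlier results of these data known, so no test was made over a list. Of the called S phase genes, 1 is not reported here. Values per sample are given for called genes and for Cdk1, Ccnb1, Mki67, Top2a and Foxm1; the rest are given by role with fold changes, and with ranges for some whose groups did not overlap. Deviations of same-numbered samples correlated at -0.0532 to 0.0487 over 5 pairs, inside the range of 20 other pairs (-0.122 to 0.117). This does not settle whether the numbers pair samples, because counting error also lowers such correlations. Alternatives were DESeq2, other scaling, other filters, the normalized table (limma 3.58.1), each sample left out, a replicate block and control replicate 1 thinned to 22548940 counts.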

Additional observations from a re-analysis of the deposited data

Results flagged for a closer look

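Among 116 sets of values searched (46 mitotic genes and 12 list sums in each group), 9 held 1 sample far from the others of its group; chance gives about 1 in 20, that is 5.8. Among control samples, Ccnb1 was 1.75 CPM in replicate 3 (next 1.34), Ccnb2 was 3.21 CPM in replicate 5 (next 2.45), Cenpe was 6.94 CPM in replicate 5 (next 6.43), Tpx2 was low at 8.41 CPM in replicate 3 (next 9.34) and Prc1 was low at 7.19 CPM in replicate 1 (next 8.05). Among mimic samples, Mybl2 was 2.2 CPM in replicate 2 (next 1.32), Aurka was 5.69 CPM in replicate 5 (next 4.54) and Ncapg was 2.79 CPM in replicate 1 (next 2.51). The summed microglial markers were lowest in mimic replicate 5, at 24.4 CPM (next 25.9).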

How the results depend on the processing

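Of the 12 called mitotic genes, 7 (Anln, Bub1b, Cenpa, Kif4, Prc1, Top2a and Tpx2) stayed called under all 20 alternatives. The other 5 were lost under at least 1, with no change of sign. Over the 11 fits that leave out 1 sample, the count of called genes ran from 7 (without mimic replicate 2) to 15 (without mimic replicate 1), and 0 were called lower in every alternative. Calls were gained for Aurka (without control replicate 4 or mimic replicate 1, upper-quartile or RLE scaling, no filter), Ccnb1 (without control replicate 3 or mimic replicate 1, no filter), Mki67 (without mimic replicate 1 or 3, no filter), Spc25 (without mimic replicate 3, no filter), Kif11 (without mimic replicate 1), Kif15 (without control replicate 4) and Plk1 (without control replicate 5), with edgeR adjusted p from 0.0187 to 0.05. The median log2 fold change of the 46 genes lay between 0.248 and 0.302 in all alternatives, and Smc4, at -0.01, ran from -0.06 to 0.02 with 1 sample left out (above 0 without control replicate 2, mimic replicate 1 or mimic replicate 3).

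For the other mitotic genes the count of 3 fell to 1 in the authors' normalized table with either pseudocount and ran from 0 to 4 with 1 sample left out. For the S phase genes the count of 8 fell to 5 in that table with either pseudocount and ran from 2 to 8 with 1 sample left out. The cause was not tested. With a replicate block on the numbers, 10 mitotic genes were called (10 shared with the 12, with Cdc20 and Kif20a lost) and the S phase count was 4. The block fit tested 17548 genes, as did the fit without control replicate 6, which has no mimic sample of that number. It thus appears to leave that sample out as well. Without control replicate 6 and with no block, 12 mitotic and 6 S phase genes were called. In both fits 15 mitotic genes did not overlap, which a block term cannot change. Genes called higher among all tested numbered 174 with the block and 148 without control replicate 6. Under upper-quartile scaling 234 of 460 called genes were higher, against 188 of 495. Low counts limit the scarcest genes.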
